A study of Caenorhabditis elegans with 12 samples.

Results

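The genes described here encode enzymes that activate fatty acids and break them down by beta-oxidation in the nematode Caenorhabditis elegans. They were chosen by name: rows whose WBcel235 gene name belongs to the families acs, cpt, acdh, ech, hacd, kat, acox or maoc followed by a number, or is daf-22. This gave 62 genes of the 46926 in the table. The rule reads names and no measured value. By step, 22 are acs genes of activation, 6 are cpt genes of carnitine transfer and 13 are acdh genes of mitochondrial dehydrogenation. A further 12 (ech, hacd and kat) cover hydration, hydroxyacyl dehydrogenation and thiolysis, and 9 (acox, maoc and daf-22) are peroxisomal enzymes. This division follows gene names and known roles, and some ech products may act in peroxisomes rather than mitochondria.

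RNA of whole hermaphrodites of the wild-type strain N2 was sequenced in 3 groups of 4 libraries: the solvent DMSO, bromhexine at 100 µM and genipin at 200 µM, each for 48 h from young adulthood. Bromhexine is a drug used to thin mucus. Genipin comes from plants, crosslinks proteins and is used to inhibit UCP2, an uncoupling protein of mammals. All groups were kept at 20 °C on agar with Escherichia coli OP50-1, streptomycin in the culture plates and FUDR in the drug plates to hold the population synchronized; FUDR blocks DNA synthesis, and the protocol common to all samples includes it for the controls too. The labels put the 12 libraries in 1 batch and do not state whether replicates came from separate cultures, so each p reflects the spread among these samples alone, and that spread may be technical.

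A fatty acid enters metabolism when an acyl-CoA synthetase (acs) joins it to coenzyme A. Carnitine acyltransferases (cpt) move acyl groups into mitochondria, where acyl-CoA dehydrogenases (acdh), enoyl-CoA hydratases (ech), hydroxyacyl-CoA dehydrogenases (hacd) and thiolases (kat) shorten the chain and release acetyl-CoA. Peroxisomes run a parallel cycle that starts with acyl-CoA oxidases (acox) and ends with the hydratase MAOC-1, the dehydrogenase DHS-28 and the thiolase DAF-22. In the nematode this peroxisomal cycle is known for trimming the side chains of ascarosides, the pheromones that control entry into the dauer stage, and the intestine is the main site of fat storage and breakdown.

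Libraries held 20.3 to 28.1 M counts, and 13695 genes had enough counts to be tested, 55 of the 62 among them. Values are CPM, counts per 1 M counts of the scaled library, and levels are compared between genes only as CPM per kb of the longest transcript. Changes are log2 fold changes ± standard error from edgeR's quasi-likelihood test with Benjamini-Hochberg adjustment over all 13695 genes, and a gene rose or fell only at an adjusted p under 0.05. Intervals are 95% intervals of the log2 fold change and are not adjusted for the number of genes. Genipin replicate 1 stood apart from its group in genes that bromhexine raised. For the cytochrome P450 gene cyp-35B3, which had no count in any DMSO library and 6809 to 9961 counts with bromhexine, genipin replicate 1 held 236 counts against 9 to 22 in the other genipin libraries. Over 34 genes that bromhexine raised by more than 5 on the log2 scale, genipin replicate 1 stood at a median of 3.79% of the rise and the others at 0.0793% to 0.225%. Counts for genipin, and the values of some genes, are therefore also given without that library.

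In DMSO the 62 genes spanned from 0.0618 CPM per kb (acs-18) to 628 ± 42.6 CPM per kb (SD, n = 4; acdh-1). Of the 62, 10 stood at 100 CPM per kb or more, 24 at 10 to 100, 17 at 1 to 10 and 11 under 1. After acdh-1, which with ech-6 belongs to the propionate shunt that degrades propionate when vitamin B12 is low, came ech-6 at 308 ± 11.7 CPM per kb. The next were acs-13 at 261 ± 23.2 CPM per kb, acs-4 at 183 ± 6.42 and acs-19 at 171 ± 16.6. The means of acs-4 and acs-19 differed by less than the SD of acs-19, so their order is not resolved. The most abundant gene of carnitine transfer was cpt-1, at 145 ± 5.92 CPM per kb, and the most abundant of the peroxisomal genes was maoc-1, at 74.4 ± 18.4. No peroxisomal gene reached 100 CPM per kb. The 7 untested genes, acdh-5, acdh-6, acs-9, acs-10, acs-15, acs-18 and acs-24, had 0 to 14 counts per library. Among the 55 tested, 52 reached the filter level of 0.425 CPM in all 4 libraries of every group. The others were acdh-8, acs-6 and ech-9. Of these, acs-6 reached it in 4 bromhexine libraries and in 2 each of DMSO and genipin, and ech-9 in 3 bromhexine libraries, 1 of DMSO and 0 of genipin, so ech-9 entered the test mainly through bromhexine.

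**Figure D1:**
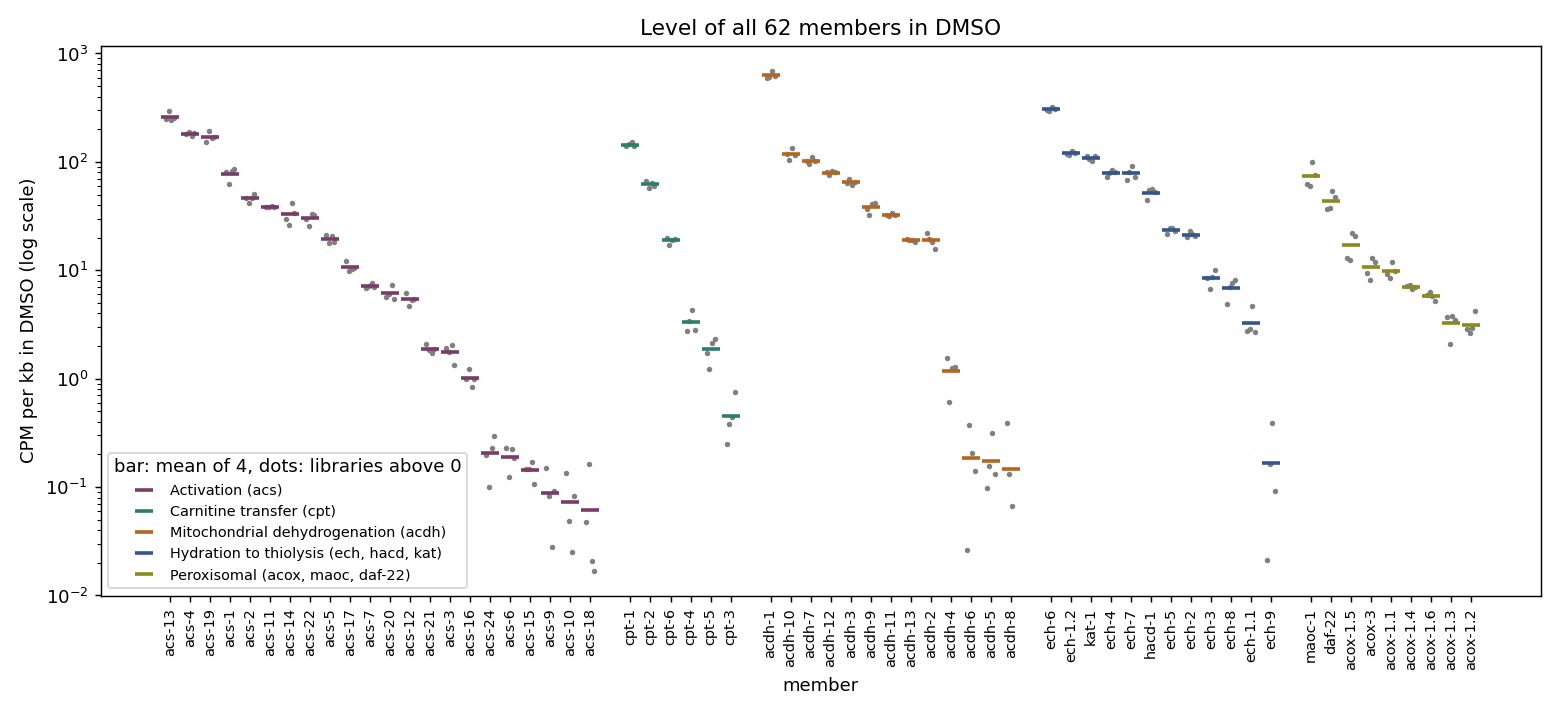
Level of each of the 62 genes in DMSO, in CPM per kb on a log axis, grouped by step; the bar is the mean of 4 libraries and dots are single libraries above 0. Levels run from 0.0618 CPM per kb for acs-18 to 628 for acdh-1, and every step but the peroxisomal one holds at least 1 gene at 100 CPM per kb or more.

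Bromhexine was set against DMSO first, to ask which of these transcripts the drug plates changed within 48 h. Of the 55 tested genes, 20 rose and 9 fell. The largest rise was that of hacd-1, a hydroxyacyl-CoA dehydrogenase gene, at 4.09-fold, and the largest fall was that of the carnitine acyltransferase gene cpt-6, at 2.11-fold. Synthetase genes rose most often, 11 of 17 with 1 fall, while no cpt gene rose. Of all genes tested, 40.8% passed the same test, 19% higher and 21.8% lower, and of these 55 genes 52.7% passed, 36.4% higher and 16.4% lower. DESeq2, which gave an adjusted p to 62 genes of the set and not 55, called 21 of the 62 higher and 9 lower. It called 38.8% of all genes it tested. The median log2 fold change of the 55 was 0.14, against 0 over all tested genes, and their median absolute change was 0.40 against 0.28. In DMSO the 55 had a median of 38 CPM against 14.8 over all tested genes, and the shares were not matched for level. Most called changes were small: 23 of the 29 were under 2-fold, and 6 reached 2-fold, where 10.3% of all tested genes were both called and at least 2-fold. Of these 6, acs-6, acox-1.4, ech-7 and hacd-1 rose, and cpt-6 and ech-1.1 fell.

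The 29 calls were not equally firm. There were 19 alternatives at the same threshold (another tool, scaling, filter or fit, or a library left out). In every alternative that tested them, 20 of the 29 stayed called. Among these, acs-6 was tested in 18, because the filter of 1 CPM in 4 libraries removed it. With a threshold of 0.01 added to the alternatives, the number that rose ranged from 14 to 21, and the number that fell from 3 to 11. Without DMSO replicate 3, 4 genes fell in place of 9, and without bromhexine replicate 3, 5 fell.

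**Figure D2:**
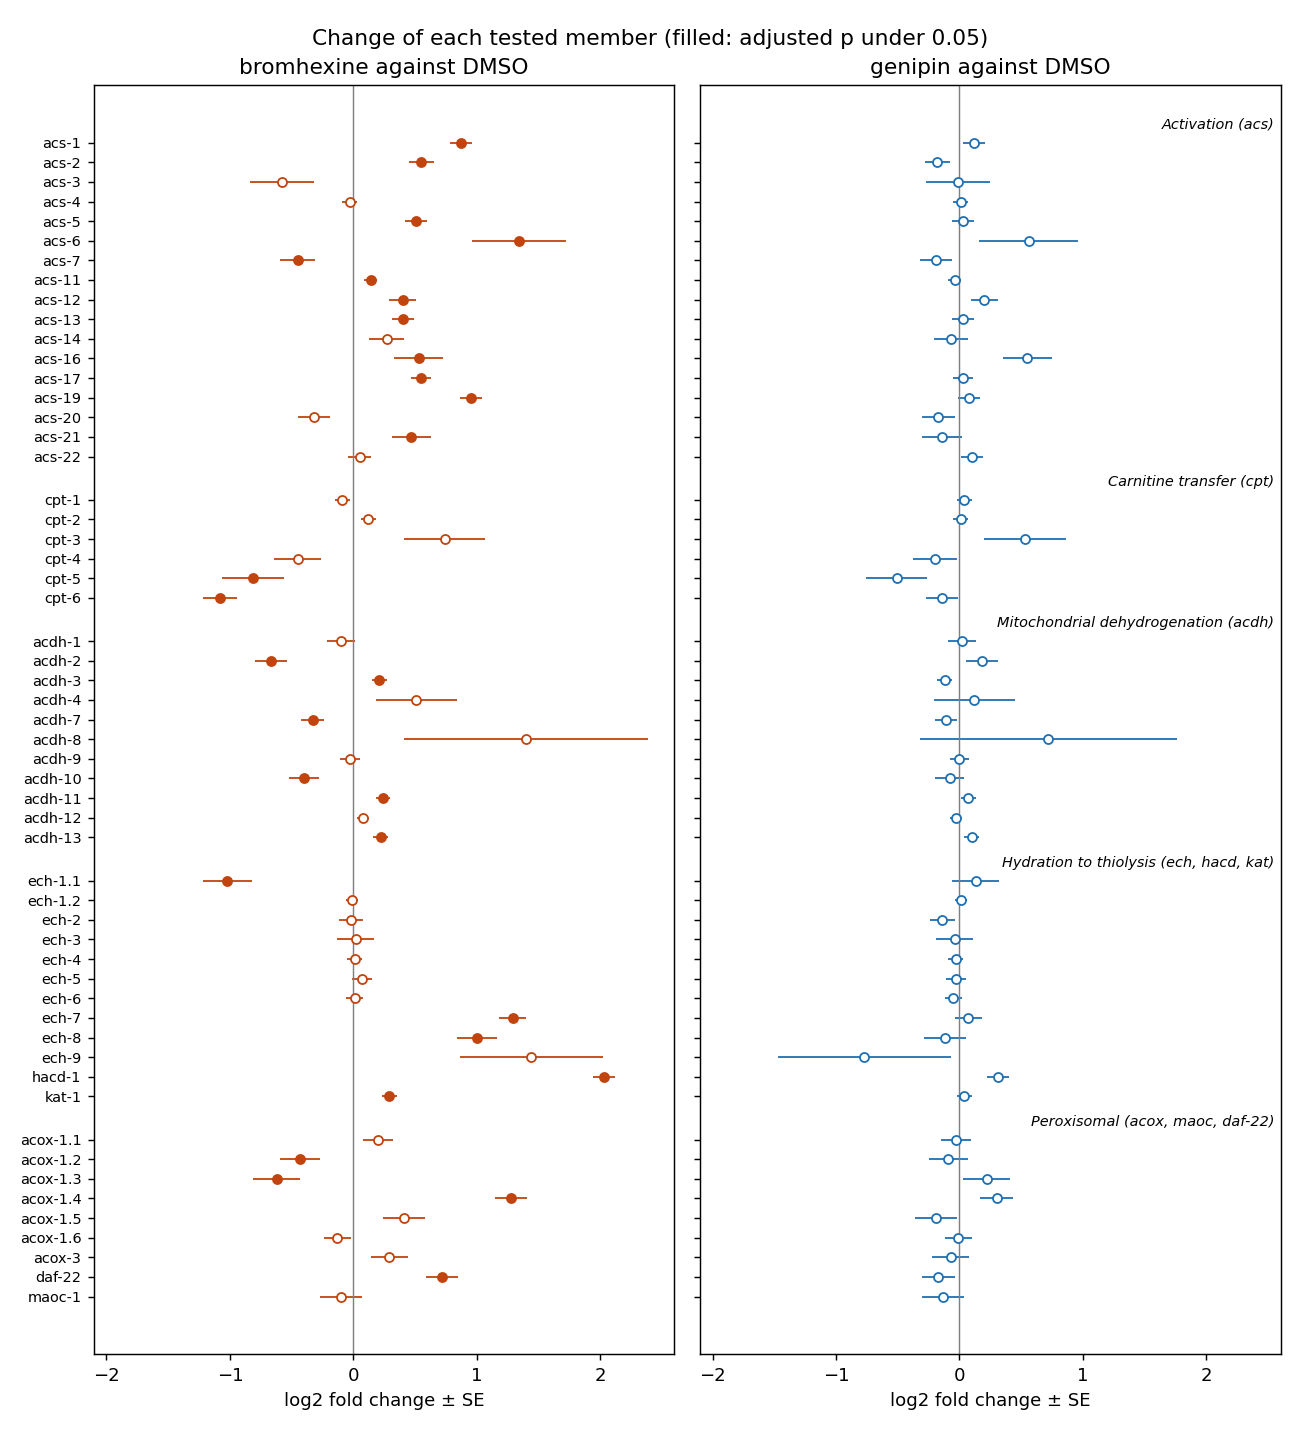
Log2 fold change ± standard error of each of the 55 tested genes, bromhexine against DMSO on the left and genipin against DMSO on the right, in order of step; filled points passed an adjusted p of 0.05. With bromhexine 20 points lie filled to the right of 0 and 9 to the left, and with genipin none is filled.

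Whole worms mix many tissues, and fewer cells of a type cannot be told apart from less RNA per cell. Markers of tissues differed between bromhexine and DMSO too, where 40.8% of all tested genes passed, 19% higher and 21.8% lower. Of 7 intestinal markers 4 rose and 0 fell, and their summed level was 22040 to 27630 CPM in DMSO and 39470 to 43670 in bromhexine libraries, mostly the yolk protein gene vit-6. The intestinal regulator elt-2 stood at 12.8 ± 2.05 CPM with bromhexine and 13.3 ± 1.17 in DMSO (SD, n = 4), a log2 fold change of -0.04 ± 0.13 (edgeR, adjusted p = 0.816). All 4 germ line markers rose, with sums of 1958 to 2371 CPM against 1528 to 1880. Of 4 body wall muscle markers 3 rose, with sums of 826 to 1057 CPM against 387 to 809, and 3 of 5 epidermal markers fell, with sums of 217 to 410 against 243 to 332. The epidermal sums were mostly col-19, at 288 CPM with bromhexine and 260 in DMSO, which did not pass. The 3 that fell, dpy-7, rol-6 and dpy-13, were scarce, at 3.35, 2.77 and 12.7 CPM in DMSO. The epidermal regulator elt-3 did not pass (-0.25 ± 0.17, edgeR, adjusted p = 0.258). Of 4 neuronal markers 1 rose and 2 fell (195 to 214 CPM against 223 to 231), and of 2 pharyngeal markers 1 rose and 1 fell (43.4 to 61.6 against 58.4 to 63.2). No marker was at 0 in all libraries, and the 3 sperm markers summed to at most 2.98 CPM in any library. The part of tissue composition in the changes below was not tested.

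Among the 17 tested synthetase genes, 11 rose and 1 fell with bromhexine, with a median log2 fold change of 0.40. Of all tested genes 40.8% passed, 19% higher and 21.8% lower, and of these 17 genes 70.6% passed, 64.7% higher and 5.88% lower. The most abundant of those with full values, acs-19 (WBGene00007969, chromosome III, 3864489 to 3867098, plus strand), resembles the mammalian acetyl-CoA synthetase ACSS2. It stood at 841, 802, 740 and 696 CPM in the 4 bromhexine libraries, against 356, 449, 390 and 399 in DMSO and 435, 466, 377 and 411 with genipin. Every bromhexine library lay above every other, and genipin overlapped DMSO. The rise was 1.93-fold, 0.95 ± 0.09 (adjusted p = 1.26e-06).

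The gene acs-1 (WBGene00018488, V, 6524989 to 6532089, plus strand) is known for activating monomethyl branched-chain fatty acids. It stood at 307, 345, 343 and 379 CPM with bromhexine, 193, 152, 198 and 207 in DMSO and 221, 196, 206 and 193 with genipin. The bromhexine libraries again lay above the rest, a rise of 0.87 ± 0.09 on the log2 scale (adjusted p = 5.23e-06). Its span overlaps those of genes on the opposite strand, hpo-26 among them, and the sources used here do not say whether strand was used in counting.

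The gene acs-2 (WBGene00009221, V, 15567394 to 15569897, plus strand) encodes a mitochondrial synthetase known to be induced by fasting through the nuclear receptor NHR-49. Its bromhexine libraries stood at 154, 142, 121 and 149 CPM, its DMSO libraries at 97.4, 87.7, 95.9 and 106 and its genipin libraries at 104.3, 80.7, 77.8 and 79.1. It rose by 0.55 ± 0.10 on the log2 scale (adjusted p = 0.000526), with no overlap between bromhexine and DMSO. The gene acs-17 (WBGene00016716, X, 5937506 to 5944510, minus strand) stood at 50.7, 46, 42.6 and 42.8 CPM with bromhexine against 35.3, 28.6, 29.8 and 30.4 in DMSO, and at 30.2, 33.4, 32.3 and 30.8 with genipin. It rose by 0.55 ± 0.08 (adjusted p = 0.000129), also without overlap.

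Other synthetase genes were chosen for mention after their values were seen. The abundant acs-13 rose by 0.40 ± 0.09 (adjusted p = 0.00254), from 677 ± 60.1 to 895 ± 94.3 CPM (SD, n = 4), although 8 of its 12 counts carried decimals, a mark of reads divided between genes. It overlaps Y65B4BL.7 on the same strand by 195 bases. The gene acs-5 rose by 0.51 ± 0.09 (adjusted p = 0.000712). The scarce acs-6 rose by 1.34 ± 0.38 (adjusted p = 0.0128), from 0.348 ± 0.0901 to 0.894 ± 0.32 CPM. Close in level to acs-19 in DMSO, acs-4 stood at 507 ± 22.5 CPM with bromhexine and 517 ± 18.2 in DMSO, with a difference of -0.03 ± 0.06 and an interval of -0.15 to 0.10. The fall was that of acs-7, known for its part in modifying ascaroside side chains, at 12.1 ± 0.595 CPM in DMSO and 8.84 ± 1.39 with bromhexine (-0.45 ± 0.14, adjusted p = 0.0173). It kept that call in 16 of the 19 alternatives. Smaller or scarcer rises were those of acs-12 (0.40 ± 0.11), acs-11 (0.14 ± 0.05), acs-16 (0.53 ± 0.20) and acs-21 (0.47 ± 0.16), and the last 3 stayed called in 9, 8 and 12 of the 19. The fatty acid transport protein homologs acs-20 (-0.32 ± 0.13, adjusted p = 0.0649) and acs-22 (0.05 ± 0.09, adjusted p = 0.68) did not pass, nor did acs-3 (-0.58 ± 0.26) and acs-14 (0.27 ± 0.14).

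**Figure D3:**
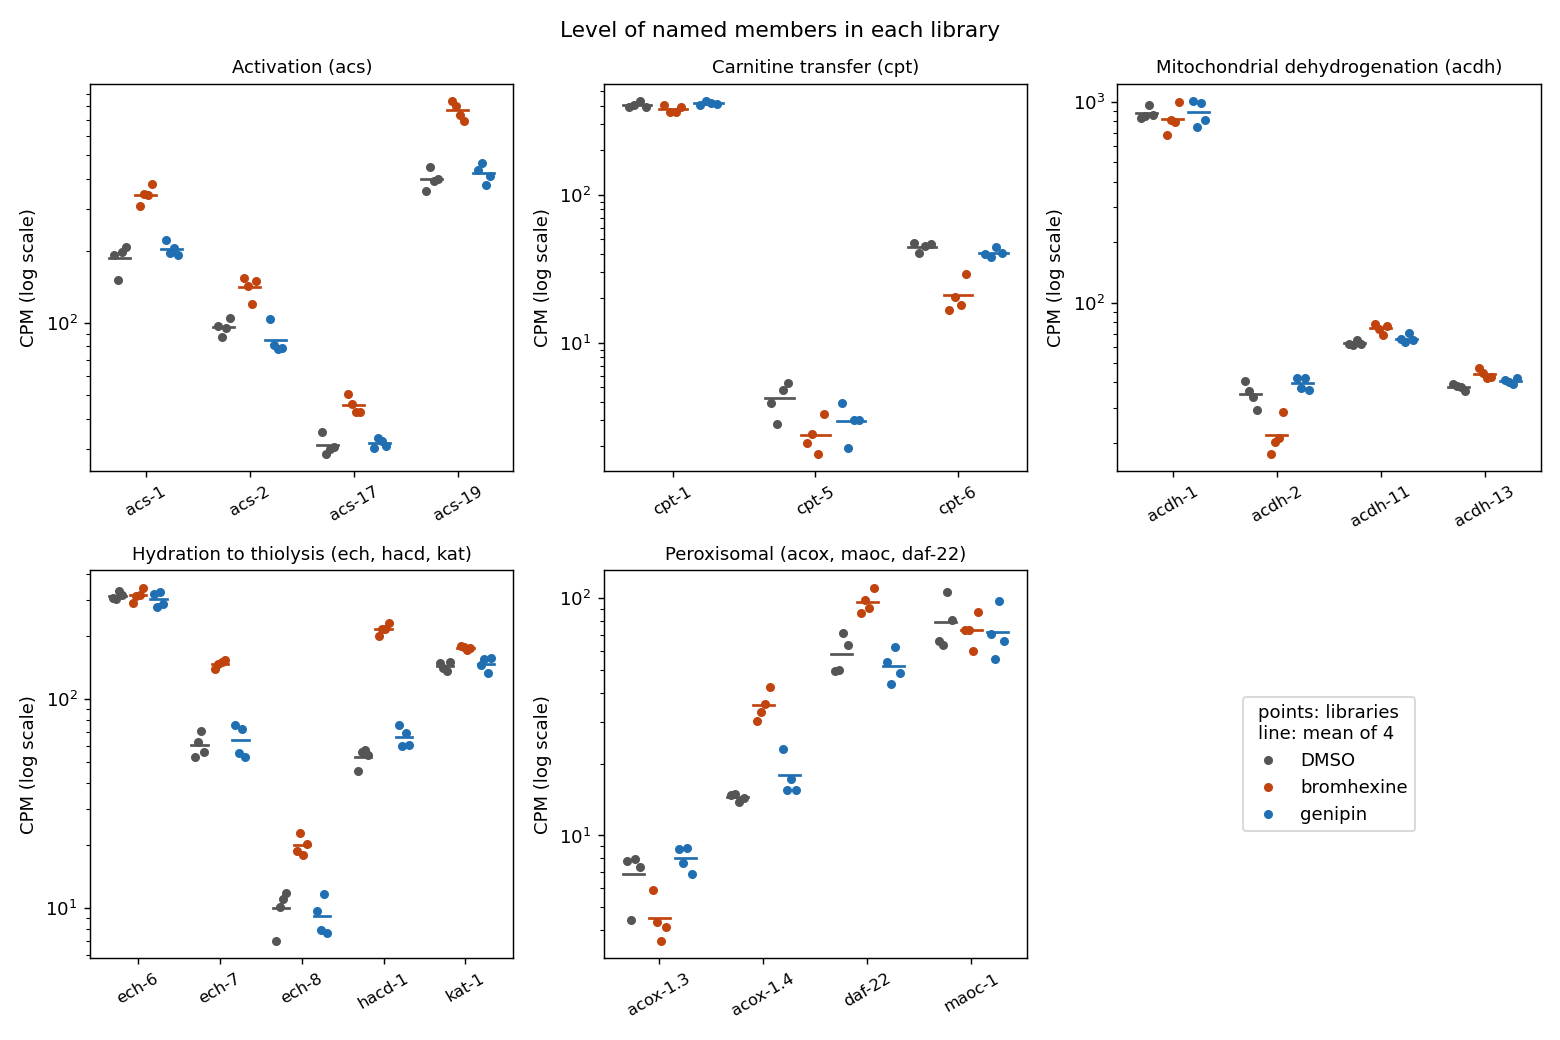
CPM on a log axis of 20 genes chosen for their role or for the smallest p of their step, in 5 panels by step; points are libraries and the line is the mean of 4. The bromhexine points of hacd-1 (201 to 232 CPM) and acs-19 (696 to 841 CPM) lie apart from both other groups, and those of acdh-1, ech-6 and maoc-1 lie among them.

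In carnitine transfer 2 of 6 genes fell with bromhexine and 0 rose, with a median log2 fold change of -0.27. The called share was 33.3%, below the 40.8% of all tested genes, of which 19% were higher and 21.8% lower. The gene cpt-1 (WBGene00012907, II, 12788244 to 12796452, minus strand), the most abundant of the family, stood at 403, 363, 363 and 394 CPM with bromhexine and at 395, 406, 428 and 391 in DMSO. Genipin libraries stood at 407, 429, 418 and 410 CPM. Bromhexine and DMSO overlapped, and the difference of -0.09 ± 0.06 did not pass (adjusted p = 0.222, interval -0.22 to 0.04).

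The 2 that fell were less abundant members of the family. In cpt-6 (WBGene00020911, V, 6490086 to 6493921, minus strand) bromhexine libraries stood at 16.6, 20.5, 18.1 and 29.2 CPM, all below the 47.2, 40.4, 44.9 and 46.3 of DMSO and the 39.8, 37.8, 44.1 and 40.2 of genipin. Its log2 fold change was -1.08 ± 0.14 (adjusted p = 3.44e-05), and the 4th bromhexine library was the highest of its group. The scarce cpt-5 (WBGene00008629, V, 13873195 to 13875888, plus strand) stood at 2.1, 2.4, 1.78 and 3.33 CPM with bromhexine, at 3.94, 2.83, 4.84 and 5.34 in DMSO and at 3.92, 1.96, 3.03 and 3.03 with genipin. It fell by 0.81 ± 0.25 on the log2 scale (adjusted p = 0.0189) with overlapping groups. That call was lost without any of DMSO replicates 3 and 4 and bromhexine replicates 1 and 3 (adjusted p = 0.0534 to 0.0638). The remaining cpt-2 (0.12 ± 0.06), cpt-3 (0.74 ± 0.33) and cpt-4 (-0.45 ± 0.19) did not pass (adjusted p = 0.104, 0.0834 and 0.0629).

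Among the 11 tested acyl-CoA dehydrogenase genes 3 rose and 3 fell, with a median of 0.08, and none of the 6 changed 2-fold. Together 54.5% passed, 27.3% in each direction, where 40.8% of all tested genes passed, 19% higher and 21.8% lower. The most abundant gene of all 62, acdh-1 (WBGene00016943, I, 6497436 to 6499560, plus strand), acts in the propionate shunt. It stood at 685, 807, 796 and 997 CPM with bromhexine, 832, 851, 965 and 862 in DMSO and 1006, 750, 991 and 808 with genipin. The groups overlapped, and the difference of -0.10 ± 0.11 had an interval of -0.35 to 0.16 (adjusted p = 0.522).

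The gene acdh-11 (WBGene00012860, III, 10566258 to 10571603, plus strand) encodes a dehydrogenase known to bind medium-chain fatty acids and to lower expression of the desaturase gene fat-7. It stood at 78.1, 73.7, 68.7 and 76.7 CPM with bromhexine against 62.2, 61.5, 65.3 and 62.5 in DMSO, and at 65.7, 63.6, 70.3 and 65 with genipin. It rose by 0.24 ± 0.06 (adjusted p = 0.00373) without overlap with DMSO. The gene acdh-13 (WBGene00001566, IV, 8496485 to 8498823, minus strand) rose by 0.22 ± 0.06 (adjusted p = 0.0112), at 47.5, 44.4, 42.1 and 42.8 CPM against 39.4, 38.3, 37.9 and 36.5, with genipin at 41.1, 40.4, 39.1 and 42.1. Both rises were under 1.2-fold.

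In the other direction, acdh-2 (WBGene00015894, II, 5544778 to 5547492, minus strand) stood at 17.7, 20.3, 21.1 and 28.6 CPM with bromhexine, against 40.6, 36.4, 33.7 and 29.1 in DMSO and 42.2, 37.6, 41.9 and 36.7 with genipin. It fell by 0.67 ± 0.13 on the log2 scale (adjusted p = 0.00121), and the highest bromhexine library lay just under the lowest DMSO library. The other 2 that fell, named after their values were seen, were acdh-7 and acdh-10, homologs of the medium-chain acyl-CoA dehydrogenase. They changed by -0.33 ± 0.09 (adjusted p = 0.0131) and -0.40 ± 0.12 (adjusted p = 0.0155), from 137 ± 8.21 to 109 ± 14.9 CPM and from 163 ± 17.3 to 124 ± 18.7 CPM, with overlapping groups. The 3rd rise was that of acdh-3 (0.21 ± 0.06, adjusted p = 0.0144), which overlaps K06A5.3 on the opposite strand by 462 bases. The very-long-chain homolog acdh-12 stood at 172 ± 7.35 CPM with bromhexine and 163 ± 5.84 in DMSO (0.08 ± 0.05, interval -0.04 to 0.20). It did not pass, nor did acdh-9 (-0.03 ± 0.08) and the scarce acdh-4 (0.51 ± 0.33) and acdh-8 (1.40 ± 0.99).

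Among the 12 genes of hydration, hydroxyacyl dehydrogenation and thiolysis, 4 rose and 1 fell. Their median was 0.04: 7 genes did not pass, and 3 of the rises were near 2-fold or above. Of the 12 genes 41.7% passed, 33.3% higher and 8.33% lower, where 40.8% of all tested genes passed, 19% higher and 21.8% lower. The gene hacd-1 (WBGene00019978, V, 1460369 to 1461613, plus strand) stood at 201, 217, 217 and 232 CPM with bromhexine and at 45.2, 56.2, 57 and 53.9 in DMSO. Its rise of 2.03 ± 0.09 (adjusted p = 2.8e-10, interval 1.83 to 2.23) was the largest of the 55. Genipin libraries stood at 75.1, 59.8, 68.7 and 60.3 CPM, all above DMSO and all below bromhexine.

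The hydratase family gene ech-7 (WBGene00001156, I, 14367616 to 14369773, minus strand) stood at 140, 148, 151 and 154 CPM with bromhexine against 53.2, 62.7, 70.8 and 56.2 in DMSO, and at 75.2, 55.1, 72 and 52.9 with genipin. It rose 2.44-fold, 1.29 ± 0.11 (adjusted p = 7.16e-07). In the same family ech-8 (WBGene00001157, IV, 10236626 to 10239176, minus strand) stood at 18.9, 22.9, 18 and 20.3 CPM against 7.01, 10.1, 11.1 and 11.9, with genipin at 9.72, 7.84, 11.7 and 7.66. It rose by 1.00 ± 0.16 (adjusted p = 0.000309). In both genes every bromhexine library lay above every library of the other groups.

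The mitochondrial thiolase gene kat-1 (WBGene00002183, II, 7073814 to 7075511, plus strand) stood at 181, 178, 172 and 177 CPM with bromhexine, 150, 141, 136 and 151 in DMSO and 146, 156, 133 and 158 with genipin. The rise was small, 0.29 ± 0.06 (adjusted p = 0.00155), and without overlap. The propionate shunt hydratase gene ech-6 (WBGene00001155, III, 9751552 to 9752883, minus strand) stood at 290, 312, 315 and 341 CPM with bromhexine and 307, 301, 329 and 315 in DMSO, with genipin at 320, 278, 327 and 285. Its difference of 0.01 ± 0.07 had an interval of -0.15 to 0.16 (adjusted p = 0.936).

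The fall was that of ech-1.1, named after its values were seen; it and ech-1.2 are both homologs of the alpha subunit of the mitochondrial trifunctional protein. Libraries of ech-1.1 stood at 3.64, 3.25, 4.1 and 5.05 CPM with bromhexine, all below the 6.94, 7.31, 11.7 and 6.8 of DMSO, and at 8.38, 7.84, 10.9 and 8.51 with genipin (-1.02 ± 0.20, adjusted p = 0.00101, interval -1.46 to -0.58). The far more abundant ech-1.2, at 121 CPM per kb in DMSO against 3.25 for ech-1.1, stood at 318 ± 13.4 CPM with bromhexine and 320 ± 9.49 in DMSO, with an interval of -0.13 to 0.12. The intervals of the 2 homologs did not overlap. Among the genes that did not pass, ech-2 stood at -0.02 ± 0.10, ech-3 at 0.02 ± 0.15, ech-4 at 0.01 ± 0.06 and ech-5 at 0.07 ± 0.08.

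Among the 9 peroxisomal genes 2 rose and 2 fell, with a median of 0.20. Together 44.4% passed, 22.2% in each direction, where 40.8% of all tested genes passed, 19% higher and 21.8% lower. The thiolase gene daf-22 (WBGene00013284, II, 12423518 to 12425694, minus strand) stood at 86.4, 98.4, 90.4 and 110 CPM with bromhexine against 49.1, 49.6, 71.5 and 63.4 in DMSO, and at 53.8, 43.7, 62.3 and 48.2 with genipin. It rose 1.65-fold, 0.72 ± 0.13 (adjusted p = 0.000528), with all bromhexine libraries above the rest. The hydratase gene maoc-1 (WBGene00017123, II, 7196276 to 7197495, plus strand), which acts earlier in the same cycle, stood at 73.6, 73.6, 59.7 and 87.2 CPM with bromhexine. Its DMSO libraries stood at 66.1, 63.3, 106 and 80.7 CPM and its genipin libraries at 70.7, 55.2, 97.1 and 66.2. The groups overlapped, and the interval of its difference, -0.50 to 0.29, was wide (-0.10 ± 0.17, adjusted p = 0.661).

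Of 7 acyl-CoA oxidase genes, which take the first step of the peroxisomal cycle, 1 rose and 2 fell. Together 42.9% passed, 14.3% higher and 28.6% lower, where 40.8% of all tested genes passed, 19% higher and 21.8% lower. The gene acox-1.4 (WBGene00008567, I, 12951134 to 12954003, plus strand) stood at 30.2, 33.1, 35.7 and 42.3 CPM with bromhexine, 14.9, 15, 13.8 and 14.4 in DMSO and 23.2, 15.6, 17.3 and 15.6 with genipin. It rose 2.44-fold, 1.28 ± 0.13 (adjusted p = 4.39e-06). Its neighbor acox-1.3 (WBGene00008566, I, 12946932 to 12951099, plus strand) stood at 5.9, 4.32, 3.61 and 4.13 CPM with bromhexine and at 7.78, 4.4, 7.94 and 7.37 in DMSO, with genipin at 8.78, 7.63, 8.87 and 6.88. It fell by 0.62 ± 0.19 on the log2 scale (adjusted p = 0.0193) with overlapping groups, and the call was lost without any of DMSO replicates 1 and 3 and bromhexine replicate 3 (adjusted p = 0.0564 to 0.0637). Counts of both carried decimals in 11 of 12 libraries, while their sum was whole (within 0.005) in 11, and in all 12 once acox-1.2 was added. Reads were thus divided between these neighbors, and the split is uncertain. Summed, acox-1.3 and acox-1.4 stood at 36.1 to 46.4 CPM with bromhexine, 19.4 to 22.6 in DMSO and 22.5 to 32.0 with genipin. The other fall, acox-1.2 (-0.43 ± 0.16, adjusted p = 0.0463), held in 7 of the 19 alternatives. The oxidase genes acox-1.5 (0.41 ± 0.17), acox-1.6 (-0.13 ± 0.11) and acox-3 (0.29 ± 0.15) did not pass.

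Some of these genes lie side by side. On chromosome I acox-1.1, acox-1.2, acox-1.3 and acox-1.4 follow each other on the plus strand with 52, 343 and 34 bases between them, and with bromhexine their log2 fold changes were 0.20, -0.43, -0.62 and 1.28. Only the last of the 4 rose, and acox-1.1 did not pass (adjusted p = 0.208). Reads were divided between acox-1.3 and acox-1.4, and in 1 library with acox-1.2 too, so the split behind these values is uncertain. The call of acox-1.2 held in 7 of the 19 alternatives. On the X chromosome acdh-10 and acdh-7 lie next to each other on the minus strand, and both fell. On chromosome IV ech-9 and ech-8 lie 1296 bases apart on the minus strand: ech-8 rose, and ech-9 had the same sign without passing (1.44 ± 0.58, adjusted p = 0.0575) at 0.717 ± 0.259 against 0.273 ± 0.262 CPM. The divergent pair acdh-12 and maoc-1 on chromosome II, 634 bases apart, did not pass.

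**Figure D4:**
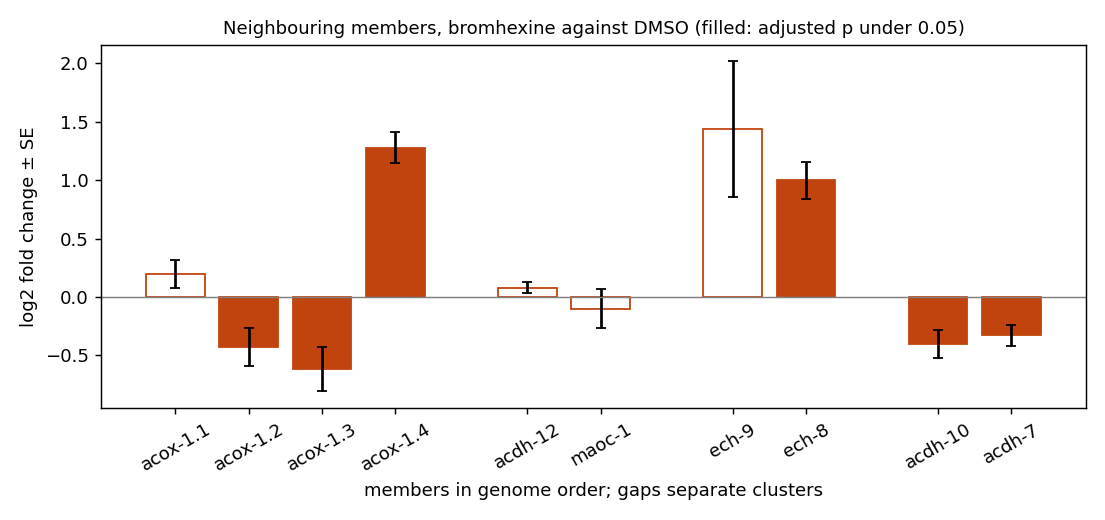
Log2 fold change ± standard error, bromhexine against DMSO, of the genes that lie side by side, in genome order with gaps between the 4 clusters; filled bars passed an adjusted p of 0.05. In the acox-1 row acox-1.4 stands at 1.28 while acox-1.2 and acox-1.3 stand at -0.43 and -0.62, and acdh-10 and acdh-7 both lie below 0. Reads were divided between acox-1.3 and acox-1.4, and their split is uncertain.

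Summed over a step, levels per kb show where the abundant transcripts moved. The 22 synthetase genes summed to 1189 to 1305 CPM per kb with bromhexine, 865 to 923 in DMSO and 869 to 953 with genipin. Of the difference of 351 between the means of bromhexine and DMSO, acs-19 made up 159, acs-13 83.7 and acs-1 65. The 12 genes of hydration to thiolysis summed to 1076 to 1168 CPM per kb with bromhexine, 778 to 849 in DMSO and 775 to 863 with genipin. There hacd-1 made up 160.1 and ech-7 113 of a difference of 306. In both steps all bromhexine libraries lay above the rest. The sums of carnitine transfer were 207 to 227 CPM per kb with bromhexine and 225 to 243 in DMSO, those of the dehydrogenases 938 to 1188 and 1057 to 1190, and those of the peroxisomal genes 191 to 244 and 144 to 219. These 3 overlapped between bromhexine and DMSO.

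**Figure D5:**
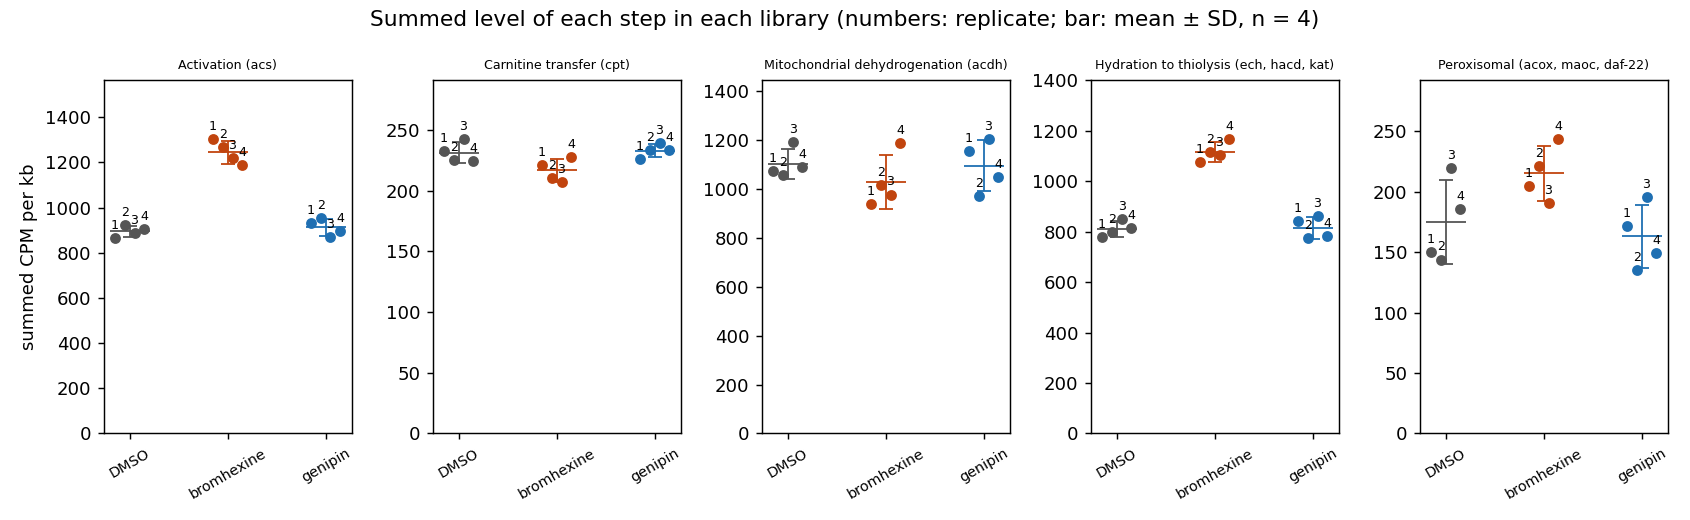
Summed CPM per kb of each step in each library, numbered by replicate, with the mean ± SD of 4 libraries. The sums of activation (1189 to 1305) and of hydration to thiolysis (1076 to 1168) in bromhexine lie above all other libraries, and the sums of the other 3 steps overlap between bromhexine and DMSO.

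Genes that act around these enzymes changed in both directions with bromhexine. Of all tested genes 40.8% passed, 19% higher and 21.8% lower. Of 11 regulators of fat metabolism 2 rose and 3 fell, 45.5% together, with a median of 0.05. The sterol-response factor gene sbp-1 rose by 0.36 ± 0.09 (adjusted p = 0.00492) and the nuclear receptor gene nhr-66 by 0.28 ± 0.08 (adjusted p = 0.0142). The nuclear receptor gene nhr-10, an activator of acdh-1 in the propionate shunt, fell by 0.67 ± 0.10 on the log2 scale (adjusted p = 0.000109), from 31.8 ± 2.46 to 20 ± 2.41 CPM (SD, n = 4), and the AMP-activated kinase gene aak-2 by 0.23 ± 0.07 (adjusted p = 0.0144). Known as the regulator of acs-2, nhr-49 was named after its values were seen: it fell by 0.15 ± 0.05 (adjusted p = 0.0362), from 122 ± 7.77 to 109 ± 2.95 CPM.

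Of the 5 propionate shunt genes, which include acdh-1 and ech-6, 1 rose and 0 fell: the hydroxyacid dehydrogenase gene hphd-1 (0.28 ± 0.09, adjusted p = 0.021). Of 6 genes of the vitamin B12-dependent route of propionate breakdown 3 rose and 1 fell, among them the mutase gene mmcm-1 (0.33 ± 0.07, adjusted p = 0.00263), named after its values were seen. Of 5 genes of electron transfer and related mitochondrial steps 2 rose, the isovaleryl-CoA dehydrogenase gene ivd-1 (0.41 ± 0.06, adjusted p = 8.29e-05) and F27D4.1 (0.15 ± 0.05, adjusted p = 0.0238). In that order, the called shares of these short lists were 20%, 66.7% and 40%, where 40.8% of all tested genes passed.

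Of 18 other peroxisomal genes 4 rose and 2 fell, with a median of 0.03. Together 33.3% of them passed, where 40.8% of all tested genes did. The peroxisomal catalase gene ctl-2, whose product removes the hydrogen peroxide that acyl-CoA oxidases make, rose by 0.93 ± 0.12 (adjusted p = 2.95e-05), from 86.3 ± 16.1 to 165 ± 7.72 CPM (SD, n = 4). The ABC transporter gene pmp-1 rose by 0.66 ± 0.12 (adjusted p = 0.000801) and the import factor gene prx-6 by 0.46 ± 0.14 (adjusted p = 0.0147). The gene prx-3, for membrane protein import, fell by 0.54 ± 0.15 on the log2 scale (adjusted p = 0.0105). Between maoc-1 and daf-22 in the cycle stands dhs-28, named after its values were seen: it rose by 0.34 ± 0.11 (adjusted p = 0.0248), from 103.8 ± 15.9 to 131 ± 11.7 CPM.

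The comparison of genipin with DMSO asks the same of the other compound. At an adjusted p of 0.05, 0 of the 55 genes were called by edgeR and 0 of 62 by DESeq2. In edgeR 3 of the 55 had an unadjusted p under 0.05. Of all genes tested, 0.0365% passed in edgeR, 0.176% in DESeq2 and 4.9% at an unadjusted p. The median log2 fold change of the 55 was -0.01, against 0 over all tested genes. The nearest was hacd-1, 0.31 ± 0.09 (adjusted p = 0.575, interval 0.12 to 0.51), for which the 4 genipin libraries lay above the 4 DMSO libraries. Without genipin replicate 1, its highest library, the value was 0.24 (adjusted p = 1). For acox-1.4 the value was 0.30 ± 0.13 (adjusted p = 0.989), and 0.15 without genipin replicate 1, which stood at 23.2 CPM against 15.6 to 17.3 in the other 3. The 3rd was acs-16, 0.55 ± 0.20 (adjusted p = 0.892), at 2.27, 3.32, 3.31 and 3.07 CPM with genipin and 2.02, 2.47, 1.69 and 1.99 in DMSO. For abundant genes the intervals were narrow: -0.11 to 0.14 for acs-4, -0.09 to 0.17 for cpt-1 and -0.11 to 0.14 for ech-1.2. Those of scarce genes were wide, from -1.62 to 3.07 for acdh-8, so a change of 2-fold was not detectable there.

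Bromhexine and genipin were also compared directly, at doses that differ (100 and 200 µM), and this comparison shares its libraries with both others. Of the 55 genes 18 were higher with bromhexine and 5 lower, 41.8% together, where 34.5% of all tested genes passed, 15% higher and 19.5% lower. The 18 and the 41.8% include the scarce ech-9, which entered the test mainly through bromhexine. Without genipin replicate 1 the counts were 18 and 6. Under upper quartile scaling they were 17 and 6, and the share of higher genes among all called genes of the table fell from 43.5% to 32.8%. Differences included 1.72 ± 0.09 for hacd-1 (adjusted p = 2.57e-09), 1.22 ± 0.11 for ech-7 (adjusted p = 1.48e-06) and 1.12 ± 0.17 for ech-8 (adjusted p = 0.000163). The value for acox-1.4 was 0.98 ± 0.13 (adjusted p = 6.67e-05). In the other direction ech-1.1 stood at -1.14 ± 0.20 (adjusted p = 0.000485) and cpt-6 at -0.93 ± 0.14 (adjusted p = 0.000142). Without genipin replicate 1, hacd-1 stood at 1.78, ech-7 at 1.3, ech-8 at 1.15, acox-1.4 at 1.13 and cpt-6 at -0.94. Passing here and not against DMSO were acox-1.5 (0.60 ± 0.17, adjusted p = 0.0143) and the scarce ech-9 (2.21 ± 0.63, adjusted p = 0.0148), both named after their values were seen, and both calls were lost without bromhexine replicate 2. The filter passed ech-9 through bromhexine libraries, so it had to differ there and its call is no support. It was not tested with a filter of 1 CPM or with 8 libraries. In acox-1.5 the bromhexine libraries stood at 45.4, 56, 42.7 and 43.1 CPM, the genipin libraries at 35.9, 27.8, 32.7 and 27.2 and the DMSO libraries at 27, 25.7, 45.5 and 43.1, so DMSO overlapped both.

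Within groups the 55 genes varied by a median coefficient of variation of 10.6% in DMSO, 11.3% with bromhexine and 11.9% with genipin. Libraries differed together in the sums of every step but activation. In each group the library with the highest peroxisomal sum (DMSO replicate 3 at 219, bromhexine replicate 4 at 244 and genipin replicate 3 at 195 CPM per kb) also had the highest dehydrogenase sum (1190, 1188 and 1205). The same libraries had the highest sums of carnitine transfer (243, 227 and 239 CPM per kb) and of hydration to thiolysis (849, 1168 and 863). Their activation sums, 886, 1189 and 869 CPM per kb, were not the highest of their group. These libraries also had the lowest germ line marker sum of their group, 1528, 1958 and 1507 CPM. The part of tissue composition in this was not tested.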

How the data were processed

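Per the labels, total RNA of whole worms was read on a HiSeq4000, paired, 150 nt per read. The submitters' processing notes name FastQC, STAR 2.7.11b, RSEM 1.3.3 and the build WBcel235; the strand setting and annotation release are not stated there. The deposited values are expected counts from RSEM, which divides reads that fit several genes, and 4.3% of the values of the 62 genes carry decimals. All 46926 IDs were found in the WBcel235 annotation of Ensembl release 115, which gave names, positions and transcript lengths. Columns were joined to samples by the labels.

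Expected counts were rounded. Tests ran in edgeR 4.0.16 under R 4.3.3: filterByExpr (13695 genes kept), TMM scaling and 1 quasi-likelihood fit of the 12 libraries with group as the only term. Benjamini-Hochberg adjustment covered all tested genes. A standard error is the log2 fold change divided by the square root of its F, with 9 residual degrees of freedom for intervals. CPM use TMM-scaled library sizes. The biological coefficient of variation was 12.1%, and no libraries of a group agreed within sampling noise (chi-square per degree of freedom 6.64 to 34.3). By that measure, pairs with bromhexine replicate 4 stood at 19.64 to 28.25 and other bromhexine pairs at 6.64 to 7.88. Pairs with genipin replicate 1 stood at 14.12 to 20.08 and other genipin pairs at 9.59 to 34.29. Library totals of 20.3 to 28.1 M counts put 3 counts at 0.107 to 0.147 CPM.

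The families, lists and tests were chosen with earlier results of these data known. Values in every library are given by rule for 20 genes: 10 singled out for their role, and in each step the 3 called genes with the smallest p in bromhexine against DMSO, with the smallest in bromhexine against genipin. From the lists of regulators, propionate shunt, peroxisome and electron transfer at most 4 called genes each are named by smallest p; others, such as ech-1.1, acs-16 and acox-1.5 with their library values, were chosen after their values were seen. Of those lists, etfa-1 and etfb-1 were not found by name. The alternatives were DESeq2 1.42.0, RLE and upper quartile scaling, no filter, 1 CPM in 4 libraries, fits of 8 libraries, the replicate number as a block, an adjusted p of 0.01 and each library left out in turn. The procedure was tested on simulated data.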

Additional observations from a re-analysis of the deposited data

Results flagged for a closer look

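In 2 of the 60 groups of 4 libraries examined, 1 library stood far from the other 3 relative to the range of its group, and chance alone flags about 1 in 20 groups. For acs-2, genipin replicate 1 stood at 104.3 CPM against 77.8 to 80.7 in the other genipin libraries. For acox-1.3, DMSO replicate 2 stood at 4.395 CPM against 7.37 to 7.94 in the other DMSO libraries.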

How the results depend on the processing

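In bromhexine against DMSO, 20 genes were higher and 9 lower. With each library left out in turn the counts were 17 to 20 and 4 to 11, and under the other settings 14 to 21 and 3 to 11. The lower count was 3 at an adjusted p under 0.01, 4 without DMSO replicate 3 and 5 without bromhexine replicate 3; the cause was not tested for the left-out libraries. In genipin against DMSO the counts were 0 and 0 in every alternative run. In bromhexine against genipin they were 18 and 5, with 15 to 20 and 4 to 7 as libraries were left out. With the replicate block the counts were 18 and 10, 0 and 0, and 17 and 5. The labels give no shared source for equal numbers. Deviations of same-numbered libraries correlated at 0.015 to 0.296 between DMSO and genipin (other numbers -0.263 to 0.132), and 3 of the 4 DMSO libraries correlated best with their own number. Same-numbered libraries stood at -0.125 to 0.004 between DMSO and bromhexine and -0.155 to -0.035 between bromhexine and genipin, so pairing was not taken as given. Of the 20 genes named by rule, cpt-5 and acox-1.3 lost their calls against DMSO as described. Against genipin acdh-11 lost its call in 10 alternatives (adjusted p = 0.0505 to 0.106), and cpt-1 gained one under upper quartile scaling (-0.17, adjusted p = 0.029). Signs turned in values that passed the test in no alternative. For ech-6 in bromhexine against DMSO the log2 fold change was -0.04 by upper quartile scaling, 0 without a filter, with 8 libraries and without DMSO replicate 1, -0.01 without DMSO replicate 2 and -0.03 without bromhexine replicate 4 (-0.03 to 0.04 over the left-out libraries). For maoc-1 it was 0.07 without DMSO replicate 3 (-0.19 to 0.07). For maoc-1 in bromhexine against genipin it was -0.02 by upper quartile scaling, -0.07 without bromhexine replicate 4, and -0.08 and -0.01 without genipin replicates 2 and 4 (-0.08 to 0.20). In genipin against DMSO, acdh-1 stood at -0.01 without DMSO replicate 1 and at -0.05 and -0.04 without genipin replicates 1 and 3 (-0.05 to 0.09), and acs-17 at -0.01 without DMSO replicate 2 (-0.01 to 0.10). There maoc-1 stood at 0.05 without DMSO replicate 3 (-0.30 to 0.05) and ech-7 at -0.02 without genipin replicate 1 (-0.02 to 0.15). Counts were few for acdh-8, acs-6 and ech-9 and for the 7 genes that the main filter left untested. Without a filter all 62 genes were tested.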
